A study of Homo sapiens with 6 samples.

Results

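The G1 cyclins and CDK inhibitors described here are 10 genes, CCND1, CCND2, CCND3, CCNE1, CCNE2, CDKN1A, CDKN1B, CDKN1C, CDKN2B and CDKN2C, chosen by name, and all 10 were found among the 36459 gene symbols of the count table. Bulk RNA was sequenced from PC9, an established human line of non-small cell lung cancer whose growth depends on mutant EGFR, in 2 groups of 3 libraries. The parental group (PC9) was untreated, with 3 independent cultures. The persister group (PS, the PSPC9 cells of the study) was the same line after 6 days under erlotinib at 15 µM, a drug that blocks the EGFR kinase, with 9 independent cultures pooled into the 3 libraries. Both groups are therefore bulk cultures of 1 established line, seen at a single dose and time, and no vehicle control is named in the sources used here. In such bulk samples, fewer cells that carry a transcript and less of it per cell cannot be told apart.

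Cyclins of the D type (CCND1, CCND2, CCND3) bind the kinases CDK4 and CDK6 in response to growth signals, and cyclins of the E type (CCNE1, CCNE2) then bind CDK2 at entry into S phase. Both kinase complexes phosphorylate the RB protein and release E2F factors, which switch on genes of DNA replication. The INK4 inhibitors p15 (CDKN2B) and p18 (CDKN2C) act on CDK4 and CDK6, and the CIP/KIP inhibitors p21 (CDKN1A), p27 (CDKN1B) and p57 (CDKN1C) bind cyclin complexes more broadly. Cyclin D1 is a known output of EGFR and ERK signaling, and loss of that signal is known to raise p27 in lung cancer cells, largely through the stability of the protein, which RNA counts do not measure.

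Each library held between 29476725 and 34893782 gene counts. Libraries of 1 group differed by more than sampling noise (chi-square over its degrees of freedom 3.49 to 21.0), so all 6 were kept as separate samples. Values below are CPM, counts as a rate of the TMM-scaled library total, and a change is the log2 fold change of PS over PC9 from the quasi-likelihood test of edgeR, fitted over the 14626 genes that passed its expression filter. A gene was called at a Benjamini-Hochberg adjusted p-value under 0.01. Of all genes tested, 56.8% were called, 28.7% as higher and 28.1% as lower in PS, and 71.3% had groups that did not overlap, so a call by itself is common in these data. The 10 epithelial markers were all present, summing to 8156 to 8805 CPM in PC9 and 6391 to 6769 CPM in PS. Of 14 markers of immune cells, endothelium, stroma and blood, 9 stayed under 1 CPM in all 6 libraries and CD3E, MS4A1, COL3A1 and HBB were at 0, while the list summed to 93.9 to 96.1 CPM in PC9 and 50.3 to 57.0 CPM in PS, most of it from CD68 and COL1A1. Of the epithelial markers 2 were higher and 8 lower, with CDH1 (log2 fold change 0.60) and KRT7 (0.46) up and KRT19 (-1.03) and KRT18 (-0.92) down and a median of -0.62. Of the 7 tested markers of other cell types, 2 were higher (COL1A1 1.47, PDGFRB 1.52) and 2 lower (CD68 -1.83, PECAM1 -4.35), with a median of -1.14. The part of these markers in the results below was not tested.

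Of the 10 genes, 9 passed the expression filter and CCND2 did not. CDKN1A, CDKN2B, CCNE1 and CCNE2 were higher in PS and CCND1, CCND3 and CDKN1B were lower, while CDKN1C and CDKN2C were not called. That made 7 of 9 called, against 56.8% of all genes, with 4 higher and 3 lower, against 28.7% and 28.1%. The groups did not overlap for 8 of the 9, against 71.3% of all genes. The median log2 fold change of the 9 was -0.10, beside -0.01 over all genes tested, and CDKN1A alone passed a fold change of 2.

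**Figure D1:**
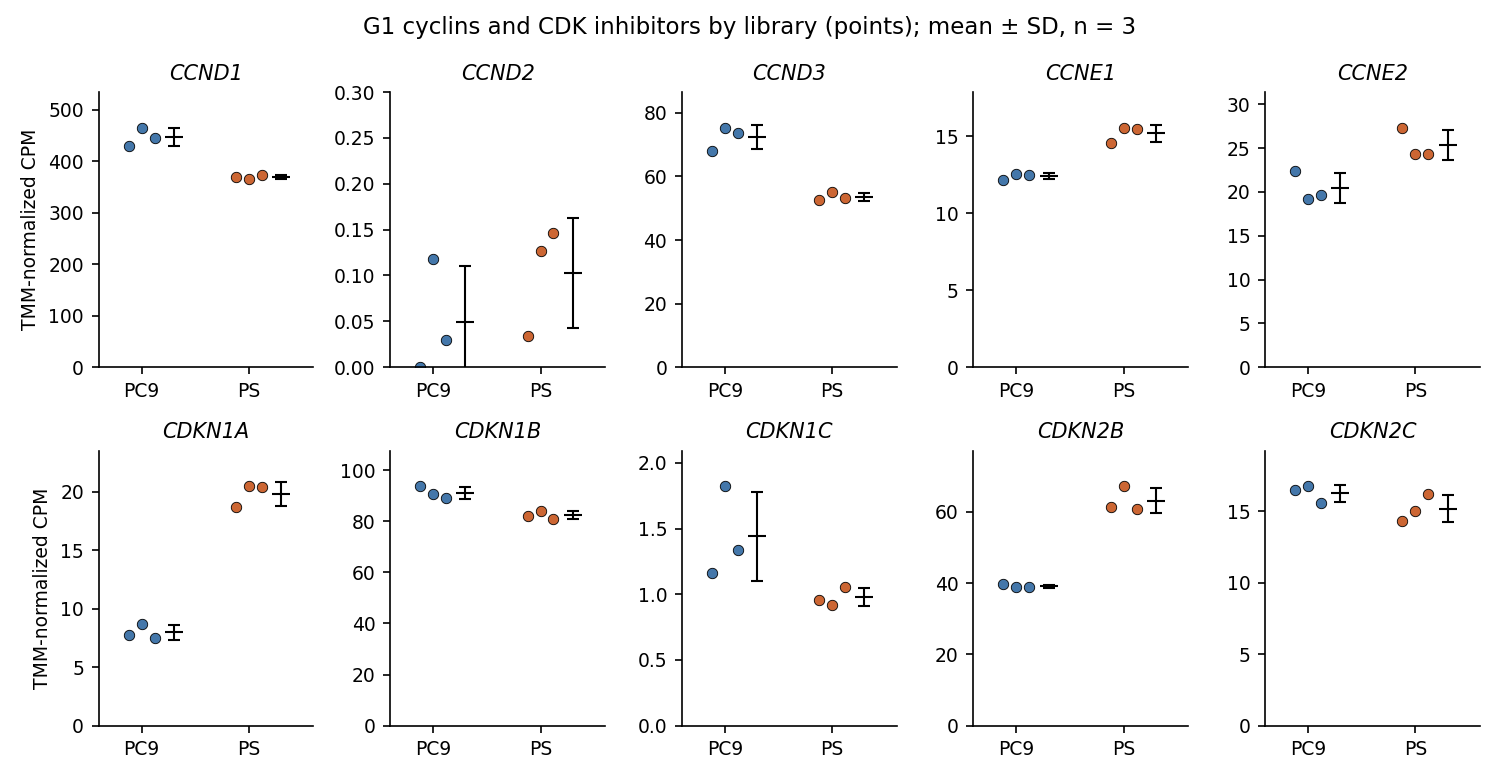
TMM-normalized CPM (y axis, linear, from 0) of each of the 10 genes in the 3 PC9 and the 3 PS libraries (points), with the mean and SD (n = 3) beside each group. CDKN1A sits between 7.48 and 8.67 CPM in PC9 and between 18.7 and 20.5 CPM in PS, and the groups share values for CCND2 and CDKN2C only.

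RefSeq promoter windows (GRCh38.p14, 250 bases before and 50 after a transcription start) were held for 6 of the 10 genes, 10 windows in all. The 4 below are shown because they belong to the inhibitors that rose and to the 2 main start sites of CCND3, whose transcripts both fell. Capitals mark matches on either strand to short words of 8 motifs.
CDKN1A, chr6:36678464-36678763, plus strand: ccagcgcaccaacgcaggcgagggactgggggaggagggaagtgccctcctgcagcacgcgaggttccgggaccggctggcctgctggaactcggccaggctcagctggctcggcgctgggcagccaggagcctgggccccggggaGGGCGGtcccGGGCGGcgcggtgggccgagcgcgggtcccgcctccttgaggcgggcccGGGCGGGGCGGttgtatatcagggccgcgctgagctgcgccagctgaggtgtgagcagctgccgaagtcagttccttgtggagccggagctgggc
CDKN2B, chr9:22009256-22009555, minus strand: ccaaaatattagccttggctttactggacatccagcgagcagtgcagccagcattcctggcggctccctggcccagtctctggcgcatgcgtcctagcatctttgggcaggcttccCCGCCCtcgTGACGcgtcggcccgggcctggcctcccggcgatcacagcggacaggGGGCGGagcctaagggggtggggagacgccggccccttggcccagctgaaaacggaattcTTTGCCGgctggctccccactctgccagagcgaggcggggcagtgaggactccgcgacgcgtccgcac
CCND3 upstream start, chr6:42048639-42048938, minus strand: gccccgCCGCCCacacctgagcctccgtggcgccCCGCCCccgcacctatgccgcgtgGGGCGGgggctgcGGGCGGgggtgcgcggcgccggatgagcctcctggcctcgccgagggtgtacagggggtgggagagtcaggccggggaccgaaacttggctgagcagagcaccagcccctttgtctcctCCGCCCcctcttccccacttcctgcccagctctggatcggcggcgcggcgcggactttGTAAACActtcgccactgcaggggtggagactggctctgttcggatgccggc
CCND3 downstream start, chr6:41941759-41942058, minus strand: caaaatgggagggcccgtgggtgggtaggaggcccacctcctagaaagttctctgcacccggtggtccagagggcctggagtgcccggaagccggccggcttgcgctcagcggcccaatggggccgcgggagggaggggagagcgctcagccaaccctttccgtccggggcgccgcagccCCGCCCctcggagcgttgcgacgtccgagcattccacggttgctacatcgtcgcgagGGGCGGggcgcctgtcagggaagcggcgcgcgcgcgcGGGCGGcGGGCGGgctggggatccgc
The word of Sp1 sites (GGGCGG) was in 8 of the 10 windows and in 45.0% of all 35116 promoter windows of the table, and some of its matches overlap each other, as in the CDKN1A window. GC content ran from 46.3% to 81% over the 10 windows and from 67.3% to 74.3% over the 4 shown. The median over all windows was 58.7%, and the part of GC content in the Sp1 matches was not tested. An E2F word (either TTTGGCG or else TTTCCCG or else TTTGCCG or else TTTCGCG) was in 1 of 10, the CDKN2B window, starting at position -18 from the start, and in 8.67% of all windows. The CRE core (TGACG) was in 5 of 10, against 24.6% of all, among the windows shown only in that of CDKN2B at position -125. A FOXO word (TGTTTAC or else TGTTTGC) was in 1 of 10, the window of the upstream CCND3 start at position -2, against 7.17%. The E-box (CACGTG) was in 2 of 10, both of CDKN2C, against 7.26%. None of the 10 held the AP-1 words (TGACTCA and also TGAGTCA), a CHR word (TTTGAA or else TTCGAA) or the TATA word (TATAAA), which 4.95%, 16.4% and 11.5% of all windows hold. Apart from the repeats of Sp1 words, no match in the windows shown overlaps a match of another motif. The matches are letters in these windows, and binding was not measured.

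CDKN1A encodes p21, which blocks cyclin-CDK complexes and is the classic target of p53 (ENSG00000124762, chromosome 6, 36676460 to 36687337 in GENCODE 44, GRCh38). It was at 7.76, 8.67 and 7.48 CPM in the 3 PC9 libraries and at 18.7, 20.5 and 20.4 CPM in the 3 PS libraries. Every PS library lay more than 2-fold above every PC9 library. The log2 fold change was 1.32 (SE 0.075, adjusted p = 7.12e-08), or 2.49-fold, and 7.77% of the genes tested changed by more in size. The rise kept its call in all 15 alternatives run, between 1.26 and 1.38. CDKN1A-201, which made up 90.1% of the gene's transcript counts in PC9 and 93.7% in PS, rose with a log2 fold change of 1.35 (adjusted p = 0.000480 over all transcripts tested).

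CDKN2B encodes p15, an inhibitor of CDK4 and CDK6 known as a target of TGF-beta signaling (ENSG00000147883, chromosome 9, 22002903 to 22009305). It was at 39.6, 39.0 and 38.8 CPM in PC9 and at 61.5, 67.1 and 60.8 CPM in PS, so the PC9 libraries were nearly level and each PS library was far above them. The log2 fold change was 0.69 (SE 0.049, adjusted p = 3.79e-07), or 1.61-fold. Its main transcript CDKN2B-201 rose by 0.66 (adjusted p = 0.00107), and the retained-intron transcript CDKN2B-203 had a log2 fold change of 0.68 that was not called (adjusted p = 0.0230). CDKN2B-203 held 13.1% of the gene's transcript counts in PC9 and 13.2% in PS. The antisense gene CDKN2B-AS1 spans the whole locus and was not in the gene table. The sources used here do not state whether strand was used in counting, and overlap of exons was not examined. Whether reads from CDKN2B-AS1 entered the CDKN2B counts was not tested.

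CDKN1B encodes p27, a CIP/KIP inhibitor controlled to a large extent by degradation of the protein (ENSG00000111276, chromosome 12, 12685498 to 12722369). Its RNA was at 93.6, 90.7 and 89.0 CPM in PC9 and at 82.2, 84.1 and 80.8 CPM in PS. All 3 PS libraries were below all 3 PC9 libraries, by a small step. The log2 fold change was -0.15 (SE 0.039, adjusted p = 0.00665), a difference of -9.62%, and 75.1% of the genes tested changed by more in size. The call was lost when PC9 replicate 1 (adjusted p = 0.0144), PC9 replicate 3 (0.0144), PS replicate 1 (0.0247), PS replicate 2 (0.0152) or PS replicate 3 (0.0375) was left out, and without the expression filter (0.0117). GPR19 overlaps the gene on the opposite strand and was at 10.3 CPM in PC9 and 4.84 CPM in PS.

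CDKN2C, which encodes p18 of the INK4 family (ENSG00000123080, chromosome 1, 50960745 to 50974634), was at 16.5, 16.7 and 15.6 CPM in PC9 and at 14.3, 15.1 and 16.2 CPM in PS. Its 2 groups shared part of their range, and a log2 fold change of -0.10 (SE 0.066, adjusted p = 0.209) was not called. CDKN1C, which encodes p57 and is imprinted in normal tissue (ENSG00000129757, chromosome 11, 2883213 to 2885775), was the lowest inhibitor, at 1.16, 1.82 and 1.34 CPM in PC9 and 0.959, 0.921 and 1.05 CPM in PS. All PS libraries were below all PC9 libraries, but the log2 fold change of -0.55 (SE 0.22, adjusted p = 0.0444) did not pass the limit. When the gene's count was taken as the sum of its transcripts it was -0.30 (adjusted p = 0.243), and without PC9 replicate 2, the highest library, it was -0.35 (adjusted p = 0.207).

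CCND1 encodes cyclin D1, the most abundant of the 10 transcripts per length in these cells (ENSG00000110092, chromosome 11, 69641156 to 69654474). It was at 430.1, 465 and 445 CPM in PC9 and at 369, 366 and 374 CPM in PS. The PS libraries were close together and all below PC9. The log2 fold change was -0.27 (SE 0.037, adjusted p = 6.38e-05), which left PS at 0.827 of the PC9 level, and 56.2% of the genes tested changed by more in size. A single transcript, CCND1-201, held 99.3% of the gene's transcript counts in PC9 and 99.0% in PS and was lower by a log2 fold change of -0.30 (adjusted p = 0.00496), a call that was lost when PC9 replicate 2 (adjusted p = 0.0107), PC9 replicate 3 (0.0272) or any 1 of the 3 PS libraries (0.0219 to 0.0246) was left out. LTO1 overlaps the gene on the opposite strand and was at 20.2 CPM in PC9 and 29.1 CPM in PS.

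CCND3, which encodes cyclin D3 (ENSG00000112576, chromosome 6, 41934934 to 42050357, minus strand), was at 68.0, 75.3 and 73.8 CPM in PC9 and at 52.6, 55.1 and 53.2 CPM in PS. Its log2 fold change of -0.43 (SE 0.048, adjusted p = 1.45e-05) was the largest of the 3 called falls. CCND2, which encodes cyclin D2 (ENSG00000118971, chromosome 12, 4269771 to 4305353), had 0, 4 and 1 counts in PC9 and 1, 4 and 5 counts in PS. These lie at or around the floor of 3 counts, which is 0.0871 to 0.103 CPM per library, so no change in CCND2 was detectable at this depth. Such floors cover counting error only.

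The E-type cyclins were both higher in PS. CCNE1, which encodes cyclin E1 (ENSG00000105173, chromosome 19, 29811991 to 29824312), was at 12.2, 12.5 and 12.5 CPM in PC9 and at 14.6, 15.5 and 15.5 CPM in PS. The groups were apart, with a log2 fold change of 0.29 (SE 0.061, adjusted p = 0.00139). CCNE2, which encodes cyclin E2 (ENSG00000175305, chromosome 8, 94879770 to 94896678), was at 22.4, 19.2 and 19.7 CPM in PC9 and at 27.3, 24.3 and 24.3 CPM in PS. Replicate 1 was the highest library of both groups, and the groups did not overlap. The log2 fold change was 0.31 (SE 0.072, adjusted p = 0.00314), and the call was lost without PC9 replicate 3 (adjusted p = 0.0180), without PS replicate 1 (0.0156) and when counts were scaled to library size only (0.01004, just above the limit). INTS8 and NDUFAF6 overlap CCNE2 on the opposite strand, at 55.2 and 14.0 CPM in PC9 and 47.7 and 15.2 CPM in PS.

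**Figure D2:**
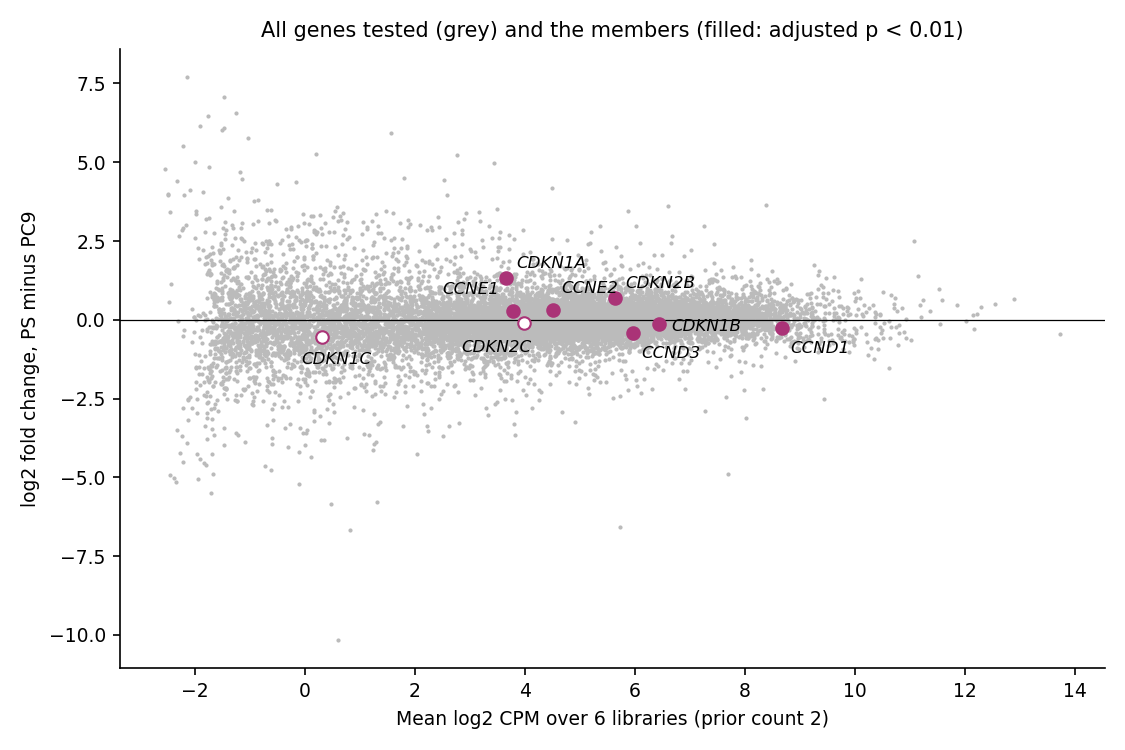
Log2 fold change of PS over PC9 (y axis) against the mean log2 CPM over the 6 libraries (x axis) for the 14626 genes tested (grey), with the 9 tested G1 cyclins and CDK inhibitors as circles, filled where the adjusted p was under 0.01. CDKN1A (1.32) and CDKN2B (0.69) stand highest of the 9, and the other called genes lie between -0.43 and 0.31.

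Levels of different genes can be set side by side only per length, for which transcript counts were divided by annotated transcript length and scaled to the same sum in every library (per-length level). In PC9, CCND1 was the highest at 212 ± 7.97 (SD, n = 3). CDKN1B at 74.6 ± 2.51 and CCND3 at 72.5 ± 5.89 followed and overlapped each other. CDKN2B at 26.4 ± 0.625 came next. CDKN2C at 17.1 ± 0.589 and CCNE2 at 16.7 ± 1.25 overlapped, and CCNE1 (13.7 ± 0.313), CDKN1A (7.14 ± 0.584), CDKN1C (1.27 ± 0.173) and CCND2 (0.0146 ± 0.0182) were lower, each apart from the next.

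In PS the order was CCND1 at 185 ± 5.32, CDKN1B at 70.1 ± 3.77, CCND3 at 54.6 ± 0.983 and CDKN2B at 44.2 ± 1.33 (SD, n = 3), all apart. CCNE2 at 21.3 ± 1.93 and CDKN1A at 18.5 ± 0.388 came next and did not overlap. CDKN2C at 16.7 ± 0.376 and CCNE1 at 16.6 ± 0.486 overlapped each other. CDKN1A thus moved from below both E-type cyclins in PC9 to between them in PS. CDKN1C at 0.988 ± 0.221 and CCND2 at 0.0309 ± 0.0177 were again the lowest.

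Summed per length, the D-type cyclins were at 269, 297 and 287 in PC9 and at 242, 234 and 244 in PS, and the E-type cyclins at 31.9, 28.9 and 30.3 against 39.5, 36.8 and 37.4. The inhibitors among the 10 genes summed to 129.6, 127 and 122 in PC9 and to 154, 152 and 146 in PS. D-type cyclin RNA per RNA of these inhibitors was 2.25 ± 0.150 in PC9 and 1.59 ± 0.0698 in PS, with no overlap of the libraries. Neither the sum nor the ratio includes the INK4 genes CDKN2A and CDKN2D. CDKN2A was lower in PS (240 CPM in PC9 and 198 CPM in PS), and CDKN2D was not called (4.68 CPM in PC9 and 4.19 CPM in PS). The sum and the ratio therefore do not give the total of CDK inhibitor RNA. The smallest p that an exact permutation test of such a single value can reach with 3 against 3 libraries is 0.1, so these sums and ratios were not tested.

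The make-up of the inhibitors shifted more than that of the cyclins. CDKN1A made up 5.65% ± 0.444 of the summed inhibitor level in PC9 and 12.3% ± 0.552 in PS (SD, n = 3). CDKN2B went from 20.9% ± 0.241 to 29.4% ± 0.737, and CDKN1B from 59.0% ± 0.671 to 46.6% ± 1.32. CDKN1B RNA was 10.5 ± 0.920 times that of CDKN1A in PC9 and 3.80 ± 0.277 times in PS. CDKN1B was still the highest of these summed inhibitors in every library. CDKN2A, a further INK4 gene at 240 CPM in PC9 and 198 CPM in PS, is not in this sum and was not ranked per length. CDKN2C had 13.5% in PC9 and 11.1% in PS. CCND1 held 74.5% ± 0.844 of the D-type level in PC9 and 77.2% ± 0.572 in PS, the rest being CCND3, and the shares of the E-type cyclins overlapped between the groups.

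**Figure D3:**
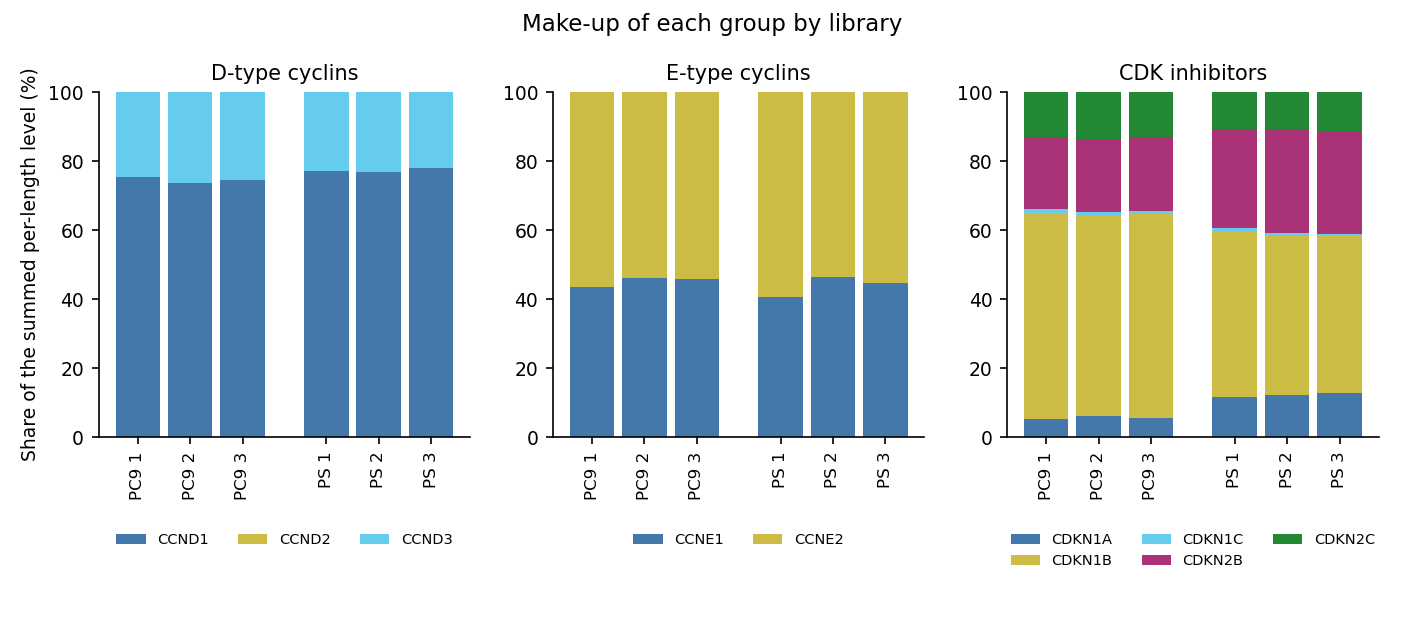
Share (y axis, percent) of each gene in the summed per-length level of the D-type cyclins, the E-type cyclins and the CDK inhibitors, as 1 stacked bar per library. CDKN1A holds 5.27% to 6.14% of the inhibitors in the PC9 libraries and 11.8% to 12.9% in the PS libraries, while CDKN1B falls from at least 58.3% to at most 48.0%.

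The transcript table held 72 transcripts of the 10 genes, of which 25 passed the filter and 5 were called, against 7.80% of all 54499 transcripts tested. CDKN1A-201 and CDKN2B-201 were higher, and CCND1-201, CCND3-203 and CCND3-213 were lower. CCND3-203, the main CCND3 transcript, was at 59.9, 65.0 and 64.1 CPM in PC9 and 47.3, 51.3 and 48.6 CPM in PS, a log2 fold change of -0.36 (adjusted p = 0.00767). That call did not hold with the looser transcript filter (adjusted p = 0.0143) or without any 1 of the 6 libraries (adjusted p = 0.0115 without PC9 replicate 1 to 0.0414 without PC9 replicate 3), and the call of CDKN2B-201 did not hold without PC9 replicate 3 (adjusted p = 0.0102). CCNE1-201 (log2 fold change 0.42, adjusted p = 0.0232), CCNE2-201 (0.32, 0.0810), CDKN1B-201 (-0.17, 0.0223) and CDKN2C-203 (-0.16, 0.386), the main transcripts of their genes, were not called. The minor transcripts CCNE2-202 (0.13, adjusted p = 0.907) and CDKN2C-202 (0.02, 0.978) and the main CDKN1C transcript, CDKN1C-204 (0.17, 0.837), were not called either. Estimates for similar transcripts share reads, and that uncertainty enters no test here.

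No member passed the test of transcript usage, which asks whether transcripts of 1 gene moved unequally (edgeR diffSpliceDGE, Simes p-value per gene), against 1.93% of the 10545 genes tested. CCNE1 passed when PC9 replicate 1 was left out (adjusted p = 0.00122) and in no other fit.

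Transcripts were also summed over annotated 5′ ends less than 500 bases apart, a grouping chosen after the transcript values had been seen. Of 30 such start-site groups of the 10 genes, 18 were tested and 8 called, against 22.8% of all groups tested. The main groups of CCND1 (log2 fold change -0.30), CDKN1B (-0.17), CCNE1 (0.39) and CDKN1A (1.31), both tested groups of CDKN2B (0.66 and 0.68) and 2 of CCND3 made up the 8. The 2 of CCND3 are its main groups, with the promoter windows printed above, and lie 107 kb apart on the minus strand. Transcripts from the upstream group (chromosome 6, starts between 42048534 and 42048968) were at 8.05, 10.6 and 10.5 CPM in PC9 and at 3.29, 3.01 and 4.23 CPM in PS, a log2 fold change of -1.47 (SE 0.18, adjusted p = 0.00120). Each PS library was below every PC9 library by a wide margin. Transcripts from the downstream group (starts between 41941519 and 41941808) were at 62.6, 68.6 and 66.4 CPM in PC9 and at 50.6, 54.1 and 51.0 CPM in PS, a log2 fold change of -0.34 (SE 0.048, adjusted p = 0.00191).

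The upstream group held 12.7% ± 1.23 of the CCND3 transcript counts in PC9 and 6.32% ± 1.22 in PS (SD, n = 3), with no overlap between the libraries. The test of the difference between the groups did not pass the limit, with an adjusted p of 0.148 by the Simes method, which called 1.52% of 6853 genes, and 0.0123 by the F test of diffSpliceDGE, which called 3.43%. Of the 2 CCND3 falls, that of the upstream group kept its call with each library left out in turn, between -1.62 and -1.37. That of the downstream group lost it without PC9 replicate 3 (adjusted p = 0.0112), PS replicate 1 (0.0115) or PS replicate 3 (0.0132).

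**Figure D4:**
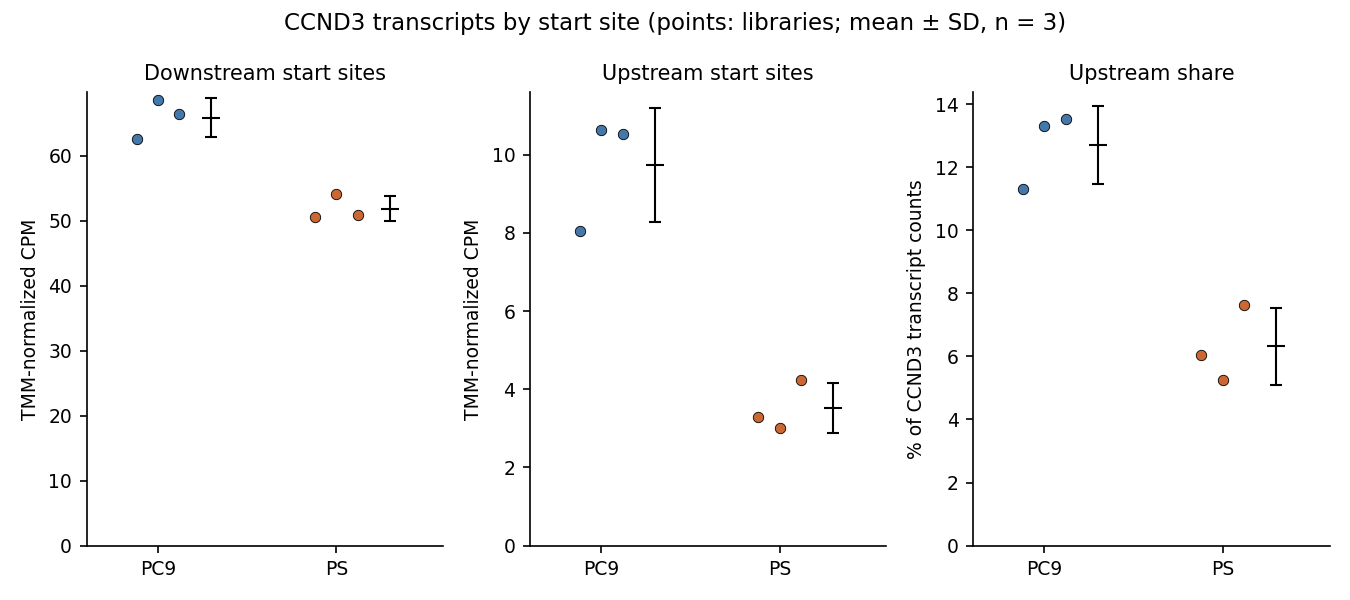
TMM-normalized CPM (y axes, linear, from 0) of CCND3 transcripts from the downstream and the upstream start-site group, and the upstream share of CCND3 transcript counts in percent, per library (points) with mean and SD (n = 3). The upstream share is 11.3% to 13.5% in the PC9 libraries and 5.25% to 7.64% in the PS libraries.

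Among the partners of these proteins, the kinases of the D-type cyclins diverged. CDK6 was at 119, 97.4 and 112 CPM in PC9 and at 212, 193 and 196 CPM in PS, with a log2 fold change of 0.87 (SE 0.067, adjusted p = 6.96e-07). CDK4 was at 111, 127 and 122 CPM against 114, 116 and 125 CPM, and was not called (log2 fold change -0.02, adjusted p = 0.750). Per length, CDK6 was 0.105 ± 0.0191 of CDK4 in PC9 and 0.190 ± 0.0160 in PS (SD, n = 3), so CDK4 remained the more abundant kinase transcript. CDK2, the kinase of the E-type cyclins, fell from 96.2 to 77.0 CPM (log2 fold change -0.32, adjusted p = 3.38e-05).

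Of the 16 kinases, pocket proteins and E2F factors listed, 5 were higher and 6 lower, with a median log2 fold change of 0.02. These are shares of 31.25% and 37.5%, beside 28.7% and 28.1% of all genes tested. RB1, the pocket protein that holds E2F factors in check, was higher (log2 fold change 0.26, adjusted p = 0.00158), RBL2, its relative p130, was lower (-0.57, 6.34e-07), and RBL1 was not called (0.05, 0.438). E2F1, an activating E2F, was higher (0.36, 0.00183), as was the repressive E2F7 (0.61, 1.08e-06). The activating E2F2 (-0.27, 0.00523), the repressive E2F8 (-0.29, 0.00155), E2F4 (-0.18, 0.00238) and E2F5 (-0.27, 0.00201) were lower, and E2F3 (0.14, 0.0184) and E2F6 (0.09, 0.2297) were not called. Another 3 genes with a CDKN name were listed as other inhibitors. CDKN2A, which encodes p16 and ARF, was lower (219, 259 and 242 against 186, 205 and 203 CPM, log2 fold change -0.28, adjusted p = 0.00191), a call lost without PS replicate 1 (adjusted p = 0.0110). CDKN2D was not called (-0.16, 0.234). CDKN3, a phosphatase that acts on CDKs and is of neither the INK4 nor the CIP/KIP family, was higher (0.56, 3.20e-06). Of 11 activators and brakes of CDKs, 3 were higher and 6 lower, the phosphatases CDC25B (0.28) and CDC25A (0.25) among the former and CDK5RAP3 (-0.69), the CDK-activating kinase subunit MNAT1 (-0.58) and another phosphatase of that family, CDC25C (-0.47), among the latter.

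Of 18 ubiquitin ligase genes that act on these cyclins and inhibitors, 2 were higher, 5 lower and 11 not called. The shares higher and lower were 11.1% and 27.8%, beside 28.7% and 28.1% of all genes tested. The median log2 fold change was 0.01, and 12 of the 18 genes were called at a limit of 0.05. SKP2, the adaptor that marks p27 for degradation, was at 157 CPM in PC9 and 167 CPM in PS (log2 fold change 0.09, adjusted p = 0.0427) and was not called. Its cofactor CKS1B fell by 0.18 on the log2 scale (adjusted p = 0.000862). FBXO4 (-1.28) and AMBRA1 (-0.38), both known to target cyclin D1, were lower, and CDC20 (0.28) and DDB1 (0.14) were higher.

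Among the listed genes of later cell cycle phases, more moved upwards than downwards. Of 10 tested later cyclins and cycling markers, 7 were higher and 1 was lower, with a median log2 fold change of 0.41. That is 70% higher and 10% lower, beside 28.7% and 28.1% of all genes tested. MKI67, the proliferation marker Ki-67, was at 242, 191 and 236 CPM in PC9 and at 377, 351 and 369 CPM in PS (log2 fold change 0.71, SE 0.076, adjusted p = 9.79e-06). MYBL2 (1.35) and FOXM1 (0.90), factors of the mitotic gene program, were higher, and PCNA (-0.24), the replication clamp, was lower. This list summed to 1725 to 1812 CPM in PC9 and 2427 to 2446 CPM in PS. The paper describes its PSPC9 cells as cycling much more slowly than PC9, a rate that RNA counts do not measure. The share of cells in each phase was not measured here, and its part in the values of the cyclins and inhibitors was not tested. Of 10 DREAM and MuvB genes, which include MYBL2 and FOXM1, 4 were higher and 2 lower (RBBP4 -0.61, LIN52 -0.24), with a median of -0.04. The pocket proteins and E2F factors of that complex, such as RBL2, E2F4 and E2F5, were not in this list and are given above.

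Of 35 E2F target genes, 6 were higher and 16 lower, with a median log2 fold change of -0.11. That is 17.1% higher and 45.7% lower, beside 28.7% and 28.1% of all genes tested. CLSPN (0.65) and EXO1 (0.61), of replication checkpoint and DNA repair, rose, and CDT1 (-0.999) and ORC1 (-0.78), which license replication origins, fell. The listed E2F targets and the listed later cyclins and cycling markers thus had medians of opposite sign, beside -0.01 over all genes. The E2F target list counts 0 of the 10 members, so CCNE1 (0.29) and CCNE2 (0.31), both higher, are outside it. The E2F genes themselves and MYBL2 are counted in other lists. Other ways of dividing genes between these lists were not tried.

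In what follows, 4 lists each count 1 member that is a known target of the pathway, which the E2F target list above does not. Over all genes tested, 28.7% were higher and 28.1% lower, the shares to set beside the counts here and in the next paragraph. Of 26 tested p53 target genes, CDKN1A among them, 12 were higher and 8 lower, with a median log2 fold change of 0.11. GADD45A (1.51) and SESN2 (1.65) were higher, and CCNG1 (-0.67) and DDB2 (-0.89), also classic p53 targets, were lower. Of 18 SMAD and TGF-beta genes, CDKN2B among them, 9 were higher and 6 lower, with a median of 0.19. ID3 (2.53), a known target of SMAD signaling, was among the higher, while TGFBI (-0.75) and ID1 (-0.78) were lower.

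Of 19 FOXO factors and targets, CDKN1B among them, 5 were higher and 11 lower, with a median log2 fold change of -0.22. GADD45A, counted here as well, and CITED2 (0.95) were higher, and ERBB3 (-0.74) and PIK3IP1 (-1.36) were lower. Of 20 ERK output genes, CCND1 among them, 4 were higher and 15 lower, with a median of -1.03. FOS (-2.49) and PHLDA1 (-1.88) fell by far more than CCND1 (-0.27), and EPHA4 (2.00) and IER3 (0.29) rose. Of 10 tested MYC network genes, 3 were higher, with MXD1 (1.00) and MAX (0.33) among them, and 5 were lower, with MLX (-0.53) and MNT (-0.49) among them, and the median was -0.18.

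**Figure D5:**
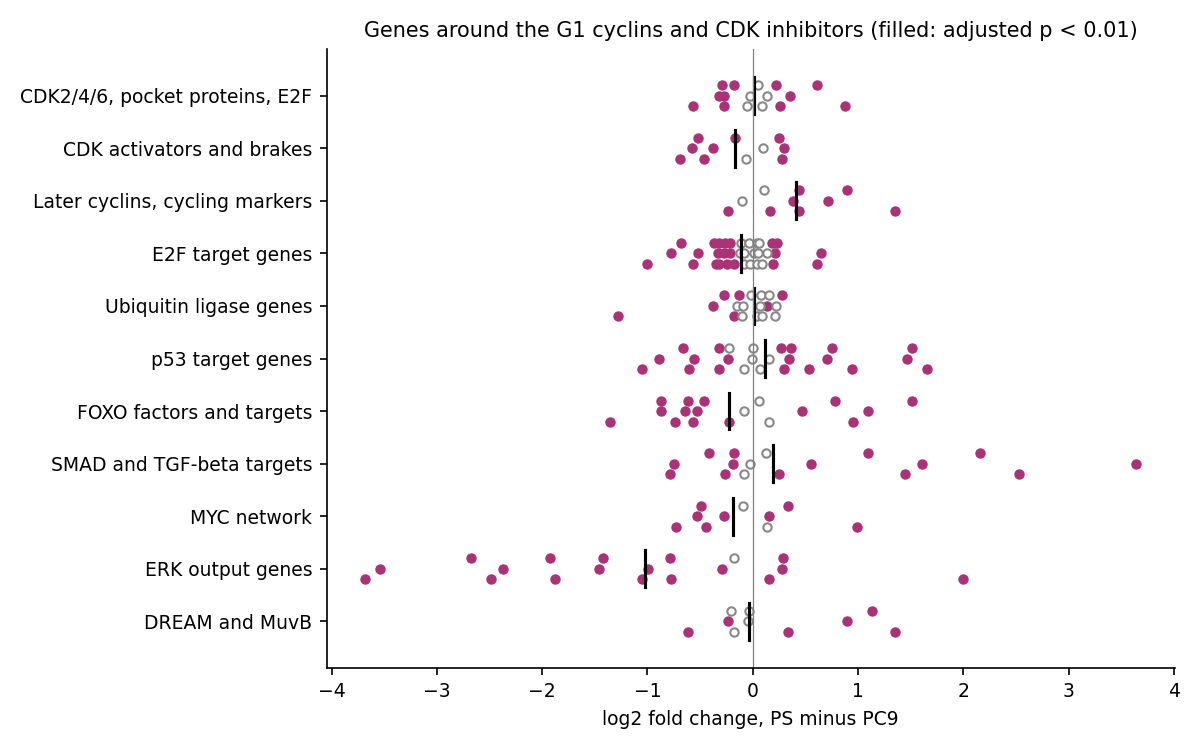
Log2 fold change of PS over PC9 (x axis) of the genes in 11 lists around the G1 cyclins and CDK inhibitors (rows), 1 circle per tested gene, filled where the adjusted p was under 0.01, with the median of each list as a black bar. The ERK output genes have the lowest median (-1.03) and the later cyclins and cycling markers the highest (0.41).

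The genes whose 6 values ran most like those of the 3 members with the smallest p-values were found by the root mean square difference of log2 CPM, each gene centered on its own mean over the 6 libraries. For CDKN1A these were HR (0.0238), MYBL2 (0.0337) and NFIX (0.0358). For CDKN2B they were UBAP2 (0.0211), RHOQ (0.0234) and ELMO2 (0.0269), and for CCND3 they included ARAP1 (0.00944) and TARS2 (0.0193). With 2 groups of 3 libraries, this likeness mostly reflects a fold change of like size.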

How the data were processed

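RNA-seq of 3 PC9 and 3 PS libraries was used, grouped and numbered by the sample labels. The dose and the numbers of cultures come from the study's methods. The authors enriched poly-A RNA, trimmed reads with bases2fastq, applied FASTP and pseudoaligned with Kallisto 0.46.1 to Ensembl 96 transcripts (GRCh38.p13). The tables that the authors deposited give the resulting estimated counts, rounded and not normalized, per gene symbol and per transcript. Sleuth, which the study used, and a second laboratory's libraries were not used here.

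Coordinates and transcript lengths are from GENCODE 44 (GRCh38), in which 167067 of 188753 transcripts, with at least 95.8% of the counts of each library, were matched. Promoter sequences are from RefSeq. Counts were tested with edgeR 4.0.16 in R 4.3.3 (filterByExpr, TMM, glmQLFit and glmQLFTest, Benjamini-Hochberg over all features tested, limit 0.01). The SE is the size of the log2 fold change divided by the square root of F. Transcript usage was tested with diffSpliceDGE. The PS libraries are pools of cultures and the PC9 libraries are single cultures, so p-values mix the spread between pools with that between single cultures.

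The members and the gene lists, written from general knowledge, were chosen with earlier results of these data known. Named are all members, their tested transcripts with at least 10% of a gene's counts in either group, CDK2, CDK4, CDK6, RB1, RBL1, RBL2, E2F1, SKP2, CKS1B and MKI67, and per list the 2 genes with the smallest p-values in each direction. CDKN2D, CCND3-213, CDC25C and the E2F genes other than E2F1 and E2F7 fall outside this rule and are given to complete counts or families after their values had been seen. Of the genes this rule names, 2 are not reported here. Genes of like pattern were sought above a mean log2 CPM of 1 (prior count 2). Alternatives were DESeq2 1.42.0, limma 3.58.1 (voom), other scalings and filters, a block for the replicate number, leaving out each library, gene counts made from transcripts, and other limits. In simulated counts of 14626 genes, 200 of them changed 2-fold, 93.0% were recovered with 2.11% of calls wrong, and over 54499 transcripts 67.5% with 1.46%. The simulated counts had the same dispersion for every feature, and these rates do not cover changes smaller than 2-fold, such as those of most called members. Figures were drawn with matplotlib 3.10.9.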

Additional observations from a re-analysis of the deposited data

How the results depend on the processing

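All 9 tested members kept their direction in the 15 alternative fits of each, and CCND1, CCND3, CCNE1, CDKN1A and CDKN2B kept their calls in all 15. CCNE2 lost its call with library size only (0.25), and its log2 fold change ran from 0.25 to 0.38 with each library left out. CDKN1B lost its call without the expression filter (-0.14) and in 5 of the 6 fits with a library left out, which ran from -0.16 to -0.13. The number of members called ran from 5 to 7, and was 8 at a limit of 0.05. With library size only, 43.7% of the calls over all genes were higher, against 50.5%. A requirement of a fold change above 2 as well left 1691 of 8307 genes called, 1 member, 11 ERK output genes, 6 SMAD and TGF-beta genes, 5 p53 targets, 3 FOXO genes, 2 DREAM and MuvB genes, 1 each of the later cyclins, the ubiquitin ligase genes and the epithelial markers, and 0 of the other inhibitors, the kinases, pocket proteins and E2F factors, the CDK activators, the E2F targets and the MYC network. At a limit of 0.05, 12 ubiquitin ligase genes and 7 markers of other cell types were called. Between 1 and 2 of the other inhibitors were called with each library left out. Transcript calls fell to between 1549 and 2649 of the 4252 with each library left out, where fewer samples are fitted. Directions that turned were those of uncalled transcripts: CCNE2-202 (-0.24 without PC9 replicate 3, -0.035 without PS replicate 3, up to 0.46 without PC9 replicate 1), CDKN1C-204 (-0.043 without PC9 replicate 1, up to 0.39 without PS replicate 3) and CDKN2C-202 (-0.011 with library size only, -0.099 to 0.19 with a library left out). Transcript usage called 429 genes by the F test in place of 204, and 0 to 1 member with each library left out. The use of start sites was called for 67 genes without PS replicate 1, in place of 104. In each other case the cause was not tested.

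Shares taken from plain CPM, without length, differed by construction. In PC9 and PS they were 86.1% and 87.3% for CCND1, 13.9% and 12.7% for CCND3, 37.8% and 37.6% for CCNE1, 62.2% and 62.4% for CCNE2, 5.11% and 10.9% for CDKN1A, 25.1% and 34.8% for CDKN2B, and 10.4% and 8.37% for CDKN2C, and 0.0242% for CCND2 in PS.

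The replicate numbers did not pair the samples: deviations of same-numbered libraries correlated at 0.12, 0.02 and 0.02 over genes, and not every library correlated best with the one of its own number, so the block is given as an alternative only. With a replicate block 8671 genes and 7 members were called, 813 transcripts, 99 genes for transcript usage and 47 for the use of start sites. CDKN1A had a log2 fold change of 1.32, CDKN2B 0.69, CCND1 -0.27, CCND3 -0.43, CCNE1 0.29, CCNE2 0.31, CDKN1B -0.15, CDKN1C -0.55 and CDKN2C -0.10 under the block. Transcripts CDKN1A-201, CDKN2B-201, CCND1-201 and CCND3-203 were no longer called in that fit, with adjusted p-values of 0.0142, 0.0161, 0.0336 and 0.0247. Depth limits CCND2 and, less so, CDKN1C.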
